A study of Oryctolagus cuniculus with 8 samples.

Results

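Matrix metalloproteinases are zinc-dependent enzymes that cut the proteins around and on cells. MMP2 and MMP9 are gelatinases, which cleave type IV collagen of basement membranes and denatured collagen. MMP14, or MT1-MMP, is held in the cell membrane, cleaves fibrillar collagen and turns the inactive precursor of MMP2 into the active enzyme. MMP3, stromelysin 1, cleaves many matrix proteins and activates the precursors of other metalloproteinases, MMP9 among them. All are made as inactive precursors and are held in check by tissue inhibitors (TIMPs), so an RNA level does not give an activity. The probes for these genes were taken as all those that are not controls and whose RefSeq transcript accession belongs to rabbit MMP2, MMP3, MMP9 or MMP14, which gave 4 of the 680 genes that have a symbol here and 15 of the 43603 probes of the array. MMP2 had 6 probes (NM_001082209), MMP14 had 5 (NM_001082793), MMP3 had 3 (NM_001082280) and MMP9 had 1 (NM_001082203). Probes of a gene read the same RNA and are no replicates of each other. In the order of genes of the rabbit assembly mOryCun1.1, MMP3 lay between MMP1 and MMP12 with MMP13 close by, while MMP2, MMP9 and MMP14 had no other MMP gene among their nearest. The files name no genome build, so no coordinates are given.

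RNA was measured on 1-colour arrays, 1 for each of 8 cultured samples from Dutch rabbits. The late passage induced pluripotent stem (iPS) cells were the liver-derived line iPS-L1 at passage 23 and the stomach-derived line iPS-S1 at passage 22. The early passage iPS cells were the same lines at passages 7 and 6. The embryonic stem (ES) cells were the lines rdES4 and rdES2-1, and the somatic cells were cultured liver cells and cultured stomach cells. iPS cells are body cells returned to a state much like that of ES cells, and the labels do not name the factors used for this. ES and iPS cells had stem cell medium and somatic cells another medium, so cell type and medium cannot be told apart. Nothing in the labels says that the samples of a group came from separate animals or cultures beyond the names of lines and tissues, so the p-values measure only the spread between these samples, which may be technical.

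Levels are given as the log2 signal of a probe minus the 75th percentile of its array, so 0 is that percentile. They serve to compare arrays for 1 probe, not probes with each other. The 75th percentile of the signal was 274.0 to 341.7 on the 6 ES and iPS arrays and 154.7 to 163.5 on the somatic arrays, and the share of probes well above background was 62.4% to 64.7% for ES and iPS cells, against 57.8% to 58.4% for somatic cells. Of the 15 metalloproteinase probes, 14 were well above background on both arrays of at least 1 group and were tested. The labelled cell types were checked against markers. POU5F1, the pluripotency factor Oct4, lay between 6.69 and 7.62 on ES and iPS arrays and at -3.62 in liver cells and -3.46 in stomach cells. The hepatocyte products albumin (ALB) and apolipoprotein A1 (APOA1) and the gastric proton pump subunit ATP4B were within background on all 8 arrays. The other 5 measured hepatocyte genes (TF, APOE, RBP4, HP and HPX) and gastric pepsinogen C (PGC) were well above background on every array, ES and iPS arrays included, and the pump subunit ATP4A was so on every array but that of liver cells. As for connective tissue, the 3 measured genes of the connective tissue list (DCN, MGP and CAV1) summed to 191.6 in liver cells and 96.6 in stomach cells, in units of the 75th percentile, against 0.207 to 1.30 on the ES and iPS arrays. In such bulk samples, fewer cells of a type and less RNA per cell cannot be told apart.

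**Figure D1:**
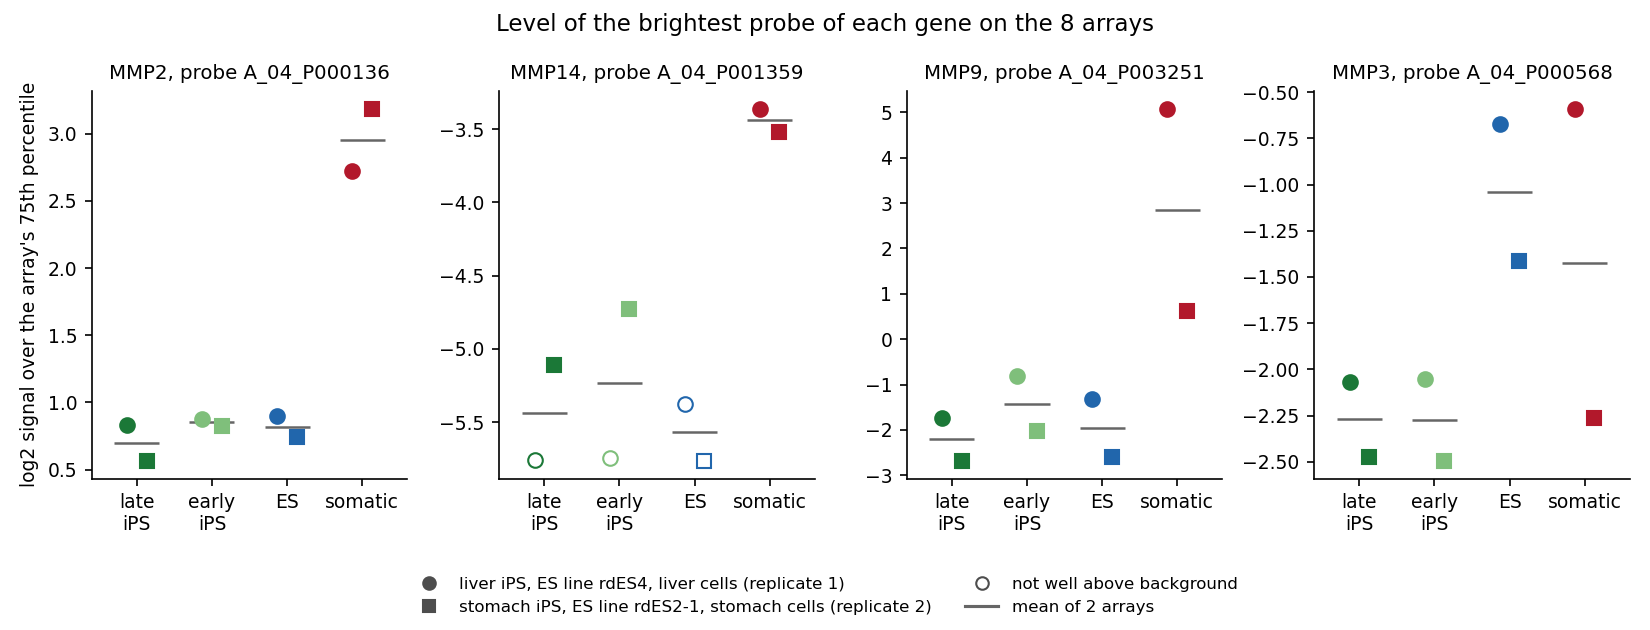
Level of the brightest probe of MMP2, MMP14, MMP9 and MMP3 (log2 signal over the 75th percentile of the array, a separate scale in each panel) on the 8 arrays, with late iPS, early iPS, ES and somatic cells from left to right; circles are replicate 1, squares replicate 2, open symbols are not well above background, and bars are the means of 2 arrays. For MMP2, MMP14 and MMP9 both somatic arrays lie above all 6 ES and iPS arrays, whereas for MMP3 the stomach cells, at -2.26, lie among the iPS arrays.

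The comparison of iPS with somatic cells asked how reprogrammed cells differed from body cells, and the passages of each line were averaged for it. MMP2, MMP14 and MMP9 were lower in iPS cells and MMP3 did not pass the test, and 12 of the 14 tested metalloproteinase probes were called lower and 0 higher at a limma adjusted p under 0.05. Of all 28854 tested probes, 32.4% were called lower in iPS cells, 34.2% higher and 66.6% in either direction. Among the 511 tested genes with a symbol, each read by its brightest probe, 45.8% were called lower and 22.1% higher, and it is beside these shares that the 3 lower genes of 4 stand. The 5 MMP14 probes were tested only because both somatic arrays passed the background filter, so a lower value in stem cells was partly fixed by that filter for them. Of the other 9 metalloproteinase probes 7 were called lower, beside 29.9% of all tested probes that did not enter by the somatic group alone. The median log2 difference of these 9 was -2.24, against 0.09 for those other tested probes. Of the 9, 6 were probes of MMP2, which read the same RNA, so the count and the median are mostly those of MMP2. By gene, MMP2 and MMP9 were called lower and MMP3 was not.

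MMP2 gave the most uniform result. Its brightest probe, A_04_P000136, read 0.83 and 0.56 in late iPS cells of the liver and stomach lines, 0.88 and 0.83 in early iPS cells, and 0.90 and 0.74 in the ES lines rdES4 and rdES2-1, against 2.72 in liver cells and 3.19 in stomach cells. All 6 arrays of iPS and ES cells lay in a narrow band far below both somatic arrays, and every value was well above background. Of all tested probes, 38.1% were lower on all 4 iPS arrays than on both somatic arrays. The mean was 0.78 ± 0.11 in iPS cells (SD, n = 2 lines) and 2.95 ± 0.33 in somatic cells (SD, n = 2), a 4.53-fold lower level in iPS cells (log2 difference -2.18 ± 0.20 SE, limma adjusted p = 0.000708). The other 5 MMP2 probes fell by between 2.22 and 2.28 on the log2 scale, with adjusted p between 0.000505 and 0.000675. The 15 pairs of MMP2 probes correlated over the 8 arrays at r between 0.996 and 1.000, as a description of probes that share a transcript and arrays.

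MMP14, the membrane-bound activator of MMP2, was dim on every array, and all of its 5 probes, which entered the test through the somatic arrays alone, were called lower in iPS cells. Its brightest probe, A_04_P001359, read -5.76 and -5.11 in late iPS cells of the liver and stomach lines, -5.75 and -4.73 in early iPS cells, and -5.37 and -5.77 in the ES lines, against -3.36 in liver cells and -3.52 in stomach cells. The somatic arrays and both arrays of the stomach iPS line were well above background, and the liver iPS line and the ES lines were not, so the order among these dim arrays is not measured. The mean was -5.34 ± 0.59 in iPS cells (SD, n = 2 lines) and -3.44 ± 0.11 in somatic cells (SD, n = 2), with a log2 difference of -1.89 ± 0.32 (SE, limma adjusted p = 0.00478), and -1.71 with dim spots set to the lowest signal that passed the background threshold on their array. The other 4 probes were not well above background on any iPS array, so their folds are bounds, computed from the somatic mean and, on each dim array, the higher of that lowest signal and the probe's own. The level in iPS cells was at least 3.99-fold lower for probe A_04_P001360 (adjusted p = 0.000619), at least 3.27-fold lower for A_04_P001358 (0.000671), at least 3.11-fold lower for A_04_P001356 (0.00937) and at least 2.59-fold lower for A_04_P001357 (0.00365). With normexp background correction the log2 differences of the 5 probes were between -1.03 and -0.91, smaller in size than these bounds, with a median over all probes of -0.40. The 10 pairs of MMP14 probes correlated over the 8 arrays at r between 0.760 and 0.987.

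MMP9 had the largest difference of the called genes and the widest interval. Its single probe read -1.74 and -2.68 in late iPS cells of the liver and stomach lines, -0.82 and -2.03 in early iPS cells, and -1.33 and -2.61 in the ES lines, against 5.08 in liver cells and 0.61 in stomach cells. No array overlapped between the stem and somatic samples. Of all tested probes, 38.1% were lower on all 4 iPS arrays than on both somatic arrays, and 39.3% on both ES arrays. The liver cells stood far above the stomach cells, by 4.47 on the log2 scale or 22.2-fold. A difference of that size or more was found for 0.312% of the tested probes. The mean was -1.82 ± 0.76 in iPS cells (SD, n = 2 lines) and 2.85 ± 3.16 in somatic cells (SD, n = 2), a log2 difference of -4.67 ± 1.51 (SE, 95% interval -8.53 to -0.81, limma adjusted p = 0.041). The difference was -2.43 (adjusted p = 0.0402) without the liver cells and -6.90 (adjusted p = 0.00246) without the stomach cells. The call ended without scaling between arrays (-3.66, adjusted p = 0.058), without the filter on dim probes (adjusted p = 0.0551), without the late liver iPS array (adjusted p = 0.0537) and without either ES array, which leaves only iPS and somatic units to estimate the spread (adjusted p = 0.0719). A fit to iPS and somatic units alone, chosen after seeing the data, gave that adjusted p as well.

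The slide that carried an array moved with the MMP9 level. In each of the 4 groups the array on slide 1, which held the liver samples and rdES4, was the higher, by 0.95 in late iPS cells, 1.22 in early iPS cells, 1.28 in ES cells and 4.47 in somatic cells. The brightest MMP3 probe, A_04_P000568, was likewise higher on slide 1 in all 4 groups, by 0.41 in late iPS cells, 0.44 in early iPS cells, 0.74 in ES cells and 1.67 in somatic cells. Of all tested probes, 9.92% were higher on slide 1 in all 4 groups and 9.85% were lower in all 4. Within slide 1, MMP9 differed from liver cells by -6.82 in late liver iPS cells and by -5.90 in early liver iPS cells on the log2 scale. With slide as a block the MMP9 difference was -5.56, for the liver iPS line against somatic cells. The stomach iPS line was alone on its slide, so its block term took up its values and it added nothing. The stomach iPS line and the stomach cells were on different slides, and there the late cells differed by -3.30 and the early cells by -2.65. Among the liver and stomach samples slide and tissue cannot be told apart.

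MMP3 did not give a single answer, since its 3 probes followed 3 different patterns. Probe A_04_P000568, the brightest, read -2.07 and -2.48 in late iPS cells of the liver and stomach lines, -2.05 and -2.50 in early iPS cells, and -0.67 and -1.41 in the ES lines, against -0.59 in liver cells and -2.26 in stomach cells. All iPS arrays lay below both ES arrays, and the somatic arrays spanned nearly the whole range. The iPS cells averaged -2.27 ± 0.30 (SD, n = 2 lines) and the somatic cells -1.43 ± 1.18 (SD, n = 2), and the log2 difference of -0.85 ± 0.60 (SE, 95% interval -2.39 to 0.70, limma adjusted p = 0.262) did not pass the test. It passed without the stomach cells (-1.68, adjusted p = 0.0202) and was -0.01 (adjusted p = 0.984) without the liver cells. With normexp background correction the adjusted p was 0.0446, at a difference of -0.74 and a median over all probes of -0.40.

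Probe A_04_P000567 of MMP3 separated early iPS cells from the other stem cells. It read -3.86 and -3.75 in late iPS cells of the liver and stomach lines, 0.74 and 0.11 in early iPS cells, and -2.94 and -4.28 in the ES lines, with -0.26 in liver cells. In stomach cells it was not well above background, at -6.95. The early iPS arrays were thus the highest of all 8, the liver cells came next, and the remaining stem arrays lay several log2 units lower. The log2 difference between iPS and somatic cells was 1.91 ± 2.15 (SE, 95% interval -3.60 to 7.42, limma adjusted p = 0.462). Its sign turned with the somatic array kept: iPS cells were at least 7.78-fold higher than stomach cells, which were within background, and without the stomach cells the difference was -1.43 (adjusted p = 0.0955). Probe A_04_P000566 was well above background in liver cells only, with a level of -0.27, and it was not tested. Its level was between -7.24 and -7.62 on the iPS arrays and at -5.94 in stomach cells, all within background. The mean of the somatic arrays thus rests on 1 unmeasured value, and no fold is given against it.

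The probes of MMP3 correlated at r between 0.155 and 0.567 over the 8 arrays in 3 pairs, with 0.155 for the tested pair. Of the 276 named genes with several tested probes, 20 (7.25%) had a lowest pairwise r below that of MMP3, and the median lowest r of these genes was 0.939. All of these genes share the same 8 arrays and differ in how many probes they have. The files give neither probe sequences nor positions in the transcript, so which of the 3 patterns stands for MMP3 RNA was not tested, and a mean over its probes is not used. The 3 probes did share that liver cells read higher than stomach cells, by 3.19-fold for A_04_P000568 and with the arrays on different slides, while stomach cells were within background for the other probes.

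**Figure D2:**
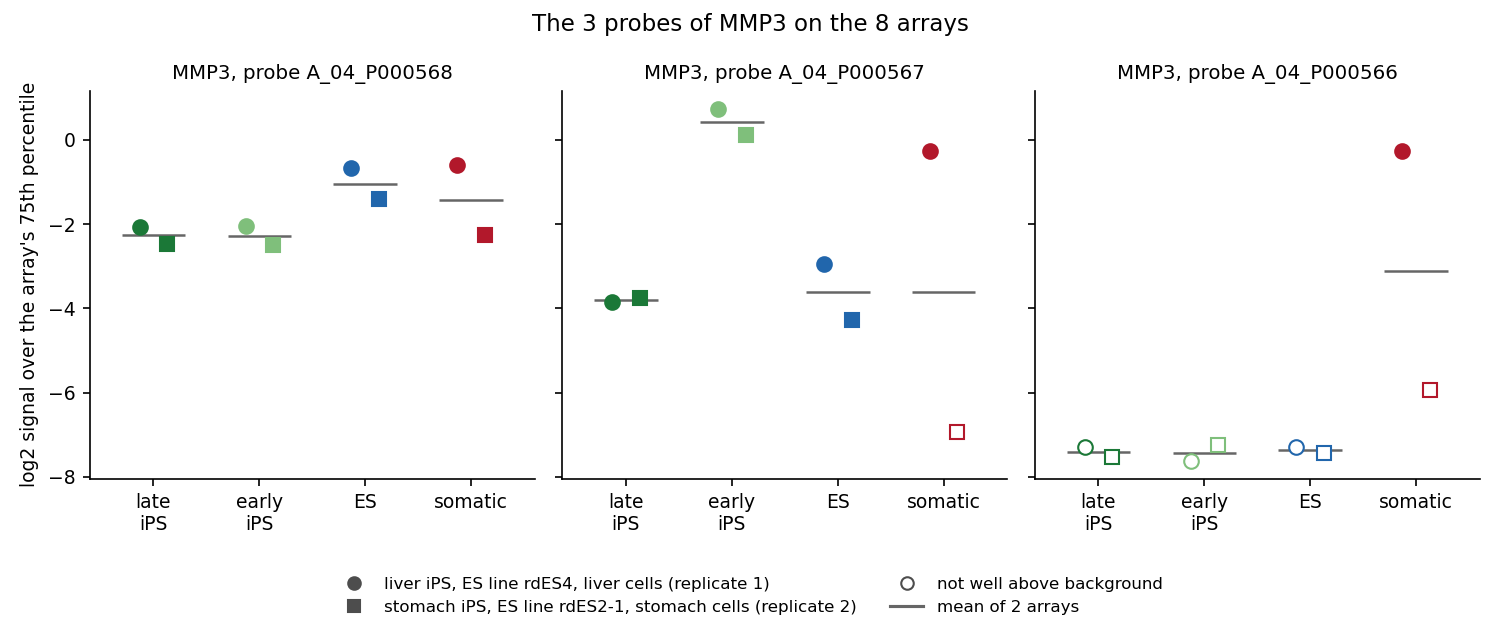
Levels of the 3 MMP3 probes (log2 signal over the 75th percentile of the array, shared axis) on the 8 arrays, with late iPS, early iPS, ES and somatic cells from left to right; circles are replicate 1, squares replicate 2, open symbols are not well above background, and bars are the means of 2 arrays. The probe in the middle is high in early iPS cells, at 0.74 and 0.11, and in liver cells, at -0.26, while the probe on the right is well above background in liver cells only.

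ES cells were compared with the same somatic cells to see which differences are also found in stem cells taken from the embryo. These values share the somatic arrays with those of the iPS comparison. MMP2, MMP14 and MMP9 were lower in ES cells too, with 12 of 14 tested probes called lower and 0 higher, while 29.7% of all tested probes were called lower, 34.2% higher and 63.9% in either direction. Of the named genes 42.7% were called lower and 21.1% higher. Without the MMP14 probes, 7 of 9 were called lower, beside 27.1% of the tested probes that did not enter by the somatic group alone. The median log2 difference was -2.20 for the 9 probes and 0.14 for those others. Again 6 of the 9 were MMP2 probes, so count and median are mostly those of MMP2. MMP2 averaged 0.82 ± 0.11 in ES cells and 2.95 ± 0.33 in somatic cells (SD, n = 2 each), a 4.39-fold lower level (log2 difference -2.14 ± 0.20 SE, limma adjusted p = 0.000752), and its 6 probes spanned differences of -2.30 to -2.14. Both ES arrays lay below both somatic arrays for all 12 called probes, as for 39.3% of all tested probes.

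MMP14 averaged -5.57 ± 0.28 in ES cells and -3.44 ± 0.11 in somatic cells by its brightest probe (SD, n = 2 each), which was not well above background in either ES line. The level in ES cells was thus at least 4.05-fold lower in the main setting (limma adjusted p = 0.00332). Among the alternatives the log2 difference of this probe was -2.32 to -0.93, and the smallest sizes of the other probes were between -0.95 and -0.79. These are smaller than the bounds given here. For the other probes it was at least 4.25-fold lower (A_04_P001360), at least 3.48-fold lower (A_04_P001358) and at least 2.76-fold lower (A_04_P001357), while A_04_P001356, measured in 1 of the 2 ES lines, differed by -2.15 ± 0.51 (SE, adjusted p = 0.0161). MMP9 averaged -1.97 ± 0.90 in ES cells and 2.85 ± 3.16 in somatic cells (SD, n = 2 each), a log2 difference of -4.82 ± 1.51 (SE, limma adjusted p = 0.0388). It was -2.58 (adjusted p = 0.0355) without the liver cells, -7.05 (adjusted p = 0.00234) without the stomach cells, and was not called without rdES4 (adjusted p = 0.091), without rdES2-1 (adjusted p = 0.159), without the filter on dim probes (adjusted p = 0.0515) or with ES and somatic cells alone in the fit (adjusted p = 0.0688). Within slide 1 rdES4 differed from liver cells by -6.41, and within slide 2 rdES2-1 differed from stomach cells by -3.22.

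The MMP3 probes did not pass the test between ES and somatic cells. A_04_P000568 averaged -1.04 ± 0.52 in ES cells and -1.43 ± 1.18 in somatic cells (SD, n = 2 each), a log2 difference of 0.38 ± 0.60 (SE, limma adjusted p = 0.601). This difference was 1.22 (adjusted p = 0.0497) without the liver cells and -0.45 (adjusted p = 0.355) without the stomach cells. A_04_P000567 differed by -0.01 ± 2.15 (SE, adjusted p = 0.997). Its ES level was at least 2.05-fold higher than that of stomach cells, which were within background, and differed by -3.36 (adjusted p = 0.01) without the stomach cells, so the sign of both probes turned with the somatic array kept. The intervals of both probes, -1.16 to 1.93 and -5.52 to 5.50, leave room for large differences either way.

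**Figure D3:**
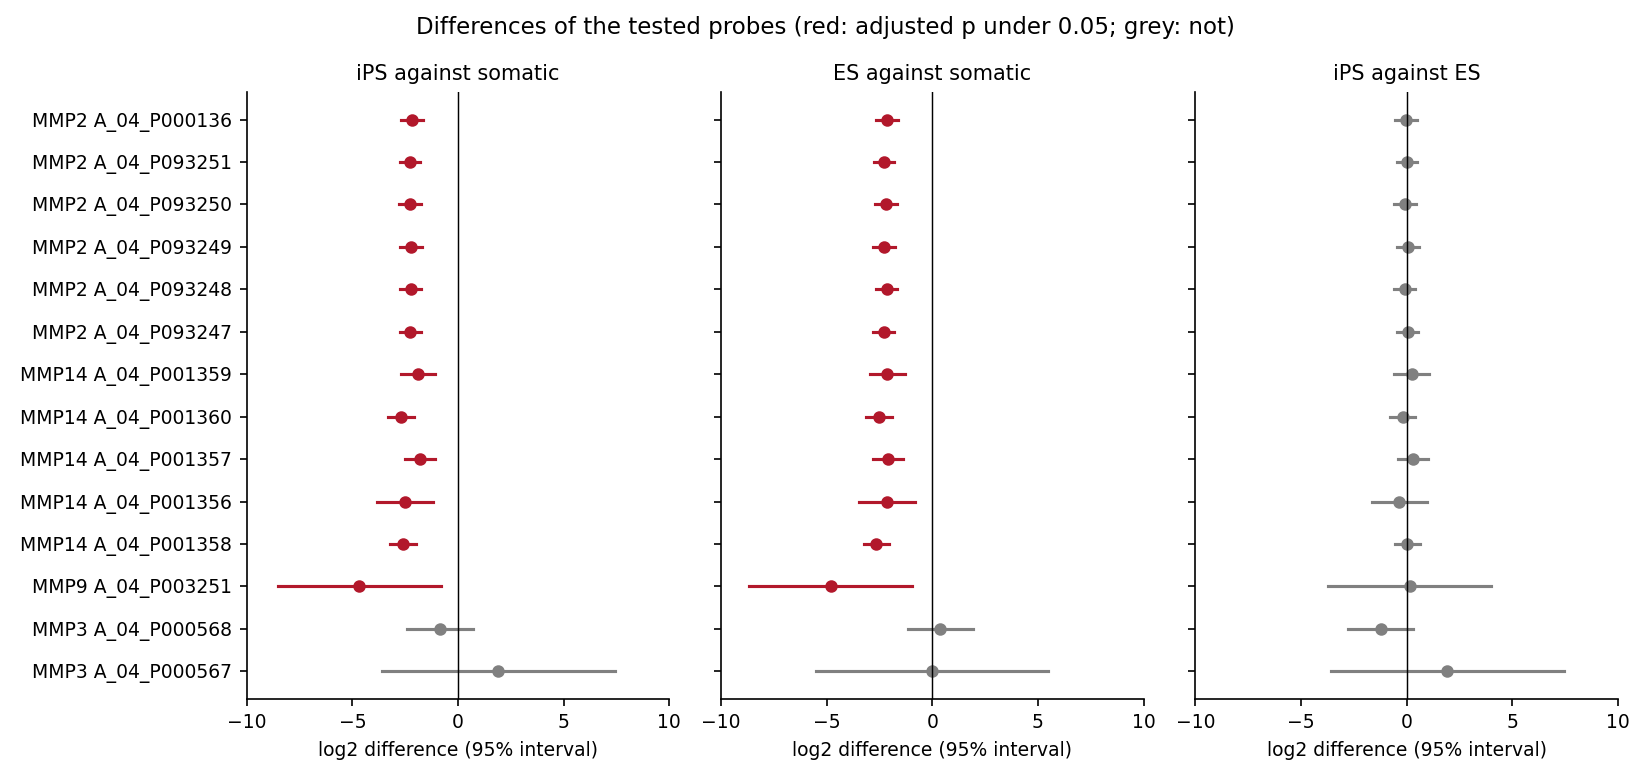
Log2 differences (dots) with 95% intervals (lines) of the 14 tested metalloproteinase probes, in panels that run from iPS minus somatic over ES minus somatic to iPS minus ES cells; red marks a limma adjusted p under 0.05 and grey a larger one. All MMP2 and MMP14 probes lie to the left of 0 in both comparisons with somatic cells, the MMP9 and MMP3 intervals are wide, and no probe is called between iPS and ES cells.

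iPS cells were compared with ES cells to see how far the stem cells of different origin resembled each other. None of the 14 metalloproteinase probes was called by limma, and 0 had an unadjusted p under 0.05. Of all tested probes 0% were called and 7.41% had such an unadjusted p. MMP2 averaged 0.78 ± 0.11 in iPS cells (n = 2 lines) and 0.82 ± 0.11 in ES cells (SD, n = 2), a log2 difference of -0.04 ± 0.20 (SE, 95% interval -0.56 to 0.47). This interval is narrow beside the difference of both from somatic cells. MMP9 differed by 0.15 ± 1.51 (SE, 95% interval -3.71 to 4.01), so that sizeable differences either way could not be seen in this fit. Its estimate of spread is shared with the somatic cells, so the interval takes in the gap between liver and stomach cells. The MMP9 SD was 3.16 in somatic cells, against 0.76 between iPS lines and 0.90 in ES cells (n = 2 each). A p that misses the threshold does not show equal levels. The brightest MMP14 probe differed by 0.23 ± 0.32 (SE, 95% interval -0.58 to 1.05), with both ES lines within background. MMP3 probe A_04_P000568 was lower on all 4 iPS arrays than on both ES arrays, as were 13.4% of all tested probes, and its mean was -2.27 ± 0.30 in iPS cells (n = 2 lines) and -1.04 ± 0.52 in ES cells (SD, n = 2). The log2 difference of -1.23 ± 0.60 (SE, 95% interval -2.78 to 0.31) did not pass the test (adjusted p = 0.735, and 0.372 without the somatic arrays in the fit, an alternative chosen after seeing the data).

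Late and early passages of the iPS lines were compared to see what changed with time in culture. By limma 0 of the 14 metalloproteinase probes were called and 0 had an unadjusted p under 0.05, while 0.0277% of all tested probes were called and 8.37% had such an unadjusted p. MMP2 averaged 0.70 ± 0.19 in late and 0.85 ± 0.04 in early iPS cells (SD, n = 2 each), a log2 difference of -0.15 ± 0.19 (SE, 95% interval -0.63 to 0.32). MMP9 read lower in late than in early cells in both lines, with differences of -0.92 in the liver line and -0.65 in the stomach line. The log2 difference was -0.78 ± 1.41 (SE, adjusted p = 0.945). This standard error takes in the gap between liver and stomach cells, as the fit shares its estimate of spread over all groups. The MMP9 SD was 3.16 in somatic cells, against 0.67 in late and 0.86 in early iPS cells (n = 2 each). The brightest MMP14 probe differed by -0.20 ± 0.38 (SE) and MMP3 probe A_04_P000568 by 0.00 ± 0.56 (SE). MMP14 probe A_04_P001356 read higher on both late arrays than on both early ones, as did 19.7% of all tested probes, with a log2 difference of 1.23 ± 0.53 (SE, adjusted p = 0.615), but all 4 values were within background.

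The largest difference by passage among the 14 probes was that of MMP3 probe A_04_P000567. Its signal was 23.6 in late and 568.9 in early cells of the liver line, and 22.1 in late and 328.4 in early cells of the stomach line. Both late arrays were thus far below both early arrays, as for 25.5% of all tested probes, and the arrays of each line shared a slide. The level was 24.2-fold lower in late cells of the liver line, a size that 17 of the 28854 tested probes reached (0.0589%), and 14.5-fold lower in late cells of the stomach line, which 34 probes reached (0.118%). The mean was -3.80 ± 0.08 in late and 0.42 ± 0.45 in early iPS cells (SD, n = 2 each), and the log2 difference of -4.23 ± 1.97 (SE, 95% interval -9.04 to 0.59, limma adjusted p = 0.626) was not called. The standard error of this probe takes in the gap between liver and stomach cells, and without the somatic arrays the adjusted p was 0.165. In the same comparison the brightest MMP3 probe differed by 0.00, as given above, so the probes do not give a single value for MMP3.

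Each passage was also set against the ES lines, with the same ES arrays in both comparisons. In late iPS cells 0 of the 14 probes were called against ES cells, with 0.0208% of all tested probes called, and in early iPS cells 0 of 14, with 0.0416%. No metalloproteinase probe had an unadjusted p under 0.05 in either comparison by limma, against 7.66% of all tested probes for late and 11.6% for early iPS cells. MMP3 probe A_04_P000567 differed from ES cells by -0.19 ± 1.97 in late iPS cells and by 4.04 ± 1.97 in early iPS cells (SE, adjusted p = 0.996 and 0.491). In early iPS cells both of its arrays lay above both ES arrays, as for 24.3% of tested probes. The brightest MMP2 probe differed by -0.12 ± 0.19 in late and 0.03 ± 0.19 in early iPS cells (SE).

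The genes of 6 lists around these enzymes were then described: other metalloproteinases, inhibitors, the plasminogen system and other activating proteases, matrix and surface substrates, inducers, and integrins with other surface partners. Of the 137 symbols in these lists, 25 had a named probe and 19 were tested, so most of the pathway is not analysed here. In iPS cells 17 of the 19 were called lower than in somatic cells and 0 higher, against 45.8% of all named genes lower and 22.1% higher. CTSE, DCN, IL1A, IL6 and SPP1 were tested only because both somatic arrays passed the background filter. Of the other 14 genes 12 were called lower, with a median log2 difference of -4.12. Of all tested probes that did not enter by the somatic group alone, 29.9% were called lower, with a median of 0.09. In ES cells 17 of 19 were called lower and 0 higher as well, against 42.7% of all named genes lower and 21.1% higher. Of those 14 genes 12 were called lower in ES cells, with a median of -4.46. Of all tested probes that did not enter by the somatic group alone, 27.1% were lower in ES cells, with a median of 0.14. The same shares stand beside the counts of single lists below. Among the 34 other metalloproteinases only MMP12, a macrophage elastase, and MMP13, a collagenase, had a named probe, and neither was tested. MMP12 was within background on all arrays. MMP13 was well above background in liver cells only, at -4.15.

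The inhibitor TIMP1, which binds active metalloproteinases, was lower in both kinds of stem cell. It read 2.91 and 2.88 in late iPS cells of the liver and stomach lines, 3.08 and 2.78 in early iPS cells, and 2.70 and 2.63 in the ES lines, against 7.04 in liver cells and 8.12 in stomach cells. The stem arrays lay close together, far below the somatic arrays. The log2 difference from somatic cells was -4.67 ± 0.36 in iPS cells and -4.92 ± 0.36 in ES cells (SE, limma adjusted p = 0.000464 and 0.000411). The other 5 listed inhibitors, TIMP2 among them, had no named probe.

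Among activating proteases 3 of 4 were called lower in both kinds of stem cell, with a median log2 difference of -3.97 in iPS cells and -3.89 in ES cells. This count and these medians include CTSE, which entered by the somatic group alone. PLAU, the urokinase that makes plasmin, differed from somatic cells by -3.20 ± 0.27 in iPS cells and -3.58 ± 0.27 in ES cells (SE). Cathepsin K (CTSK), a collagen-cleaving protease, differed by -4.74 ± 0.22 in iPS cells and -4.21 ± 0.22 in ES cells (SE). Cathepsin E (CTSE), within background in both, was in iPS cells at least 108.7-fold lower and in ES cells at least 115.7-fold lower in the main setting. Its smallest log2 differences among the alternatives were -3.97 in iPS cells and -3.81 in ES cells, smaller in size than these bounds. PLAT, the tissue plasminogen activator, did not pass the test, at -0.00 ± 0.30 in iPS cells and 0.32 ± 0.30 in ES cells (SE), although without scaling between arrays it was called higher in both, at 1.01 and 1.19, where the median of all tested probes was 1.03 and 0.94. KLK1, a kallikrein, was within background on all arrays.

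All 4 tested substrates and matrix or surface partners were lower in both kinds of stem cell, with medians of -7.90 in iPS cells and -8.37 in ES cells, or -7.49 and -7.52 with dim spots raised to the floor of their array, the lowest signal well above background. DCN and SPP1 entered by the somatic group alone, so their lower values were partly fixed by the filter, while MGP and BSG did not. Decorin (DCN), a small proteoglycan bound to collagen, was in iPS cells at least 1270-fold lower and in ES cells at least 1351-fold lower in the main setting. Its smallest log2 differences among the alternatives were -6.89 in iPS cells and -6.69 in ES cells, smaller in size than these bounds. MGP, matrix Gla protein, differed from somatic cells by -9.34 ± 0.78 in iPS cells and -8.60 ± 0.78 in ES cells (SE) and was well above background on 3 of 4 iPS arrays. Within iPS cells MGP averaged -1.15 ± 0.23 in late and -5.19 ± 1.16 in early passages (SD, n = 2 each), a log2 difference of 4.04 ± 0.81 (SE, limma adjusted p = 0.394) that was not called. Osteopontin (SPP1), which MMP3 and other metalloproteinases cut, differed by -6.47 ± 1.04 in iPS cells, of which 2 of 4 arrays were well above background (SE, limma adjusted p = 0.00416). In ES cells SPP1 was at least 87.4-fold lower in the main setting, while its smallest log2 difference among the alternatives was -3.42, smaller in size than this bound. BSG, or CD147, a surface protein known to raise metalloproteinase production, differed by -2.94 ± 0.15 in iPS cells and -2.88 ± 0.15 in ES cells (SE). Of these, DCN and MGP also belong to the list of connective tissue markers.

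Of the 7 tested inducers and signalling genes 6 were called lower in both kinds of stem cell, with medians of -7.61 in iPS cells and -6.79 in ES cells, or -6.18 and -5.68 with dim spots raised to the floor. This count and these medians include IL1A and IL6, which entered by the somatic group alone. The cytokine IL6 was in iPS cells at least 125.5-fold lower and in ES cells at least 133.6-fold lower in the main setting. Its smallest log2 differences among the alternatives were -4.09 in iPS cells and -3.99 in ES cells, smaller in size than these bounds. PTGS2, the inducible cyclooxygenase, differed by -8.51 ± 0.23 in iPS cells and -8.04 ± 0.23 in ES cells (SE). IL1RN, which blocks the interleukin 1 receptor, differed by -7.92 ± 0.73 in iPS cells and -7.68 ± 0.73 in ES cells (SE), and the growth factor TGFB2 by -3.58 ± 0.38 and -4.70 ± 0.38 (SE). The list thus holds an antagonist beside the agonists, and they were lower together. IL1A, a cytokine that induces metalloproteinases, differed by -7.61 ± 1.80 in iPS cells and -6.79 ± 1.80 in ES cells (SE, limma adjusted p = 0.0152 and 0.0231), and was well above background on 1 of 4 iPS and 1 of 2 ES arrays. With dim spots raised to the floor IL1A differed by -6.18 in iPS cells and -5.68 in ES cells. Its calls ended without the liver cells (adjusted p = 0.054 and 0.0811). ETS1, a transcription factor, was above background on 1 of 2 somatic arrays and differed by -1.30 ± 0.42 in iPS cells and -1.54 ± 0.42 in ES cells (SE, limma adjusted p = 0.0411 and 0.0255), and in iPS cells it was not called in 11 of 19 alternatives, with adjusted p between 6e-04 and 0.565. HIF1A, the oxygen-regulated factor, did not pass the test at -1.14 ± 0.49 in iPS cells and -1.26 ± 0.49 in ES cells (SE, limma adjusted p = 0.0925 and 0.0739). The cytokine IL1B and the matrix protein VTN were well above background in liver cells only, at -2.09 and -4.19, and were not tested, and TNF was within background on all arrays.

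All 3 tested surface partners were lower in both kinds of stem cell, with medians of -5.61 in iPS cells and -5.83 in ES cells. The integrin subunit ITGB3 differed from somatic cells by -5.61 ± 0.27 in iPS cells and -5.83 ± 0.27 in ES cells (SE), and CD63, a tetraspanin that binds TIMP1, by -2.62 ± 0.17 and -2.49 ± 0.17 (SE). Caveolin 1 (CAV1), a membrane protein of caveolae, differed by -5.99 ± 0.34 in iPS cells and -8.37 ± 0.34 in ES cells (SE). CAV1 read -2.67 and -3.57 in late iPS cells of the liver and stomach lines, 0.36 and -0.31 in early iPS cells, and -3.83 and -4.01 in the ES lines, against 4.77 in liver cells and 4.13 in stomach cells. Like MMP3 probe A_04_P000567 it was higher on both early iPS arrays than on the other stem arrays. Both late arrays were below both early ones for 25.5% of all tested probes. Both early arrays were above both ES arrays for 24.3%. The CAV1 log2 difference of -3.14 ± 0.39 between late and early iPS cells (SE, limma adjusted p = 0.194) was not called. None of the 19 list genes was called by limma between late and early iPS cells or between iPS and ES cells. An unadjusted p under 0.05 was found for 4 and 2 of them in turn, beside 8.37% and 7.41% of all tested probes.

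**Figure D4:**
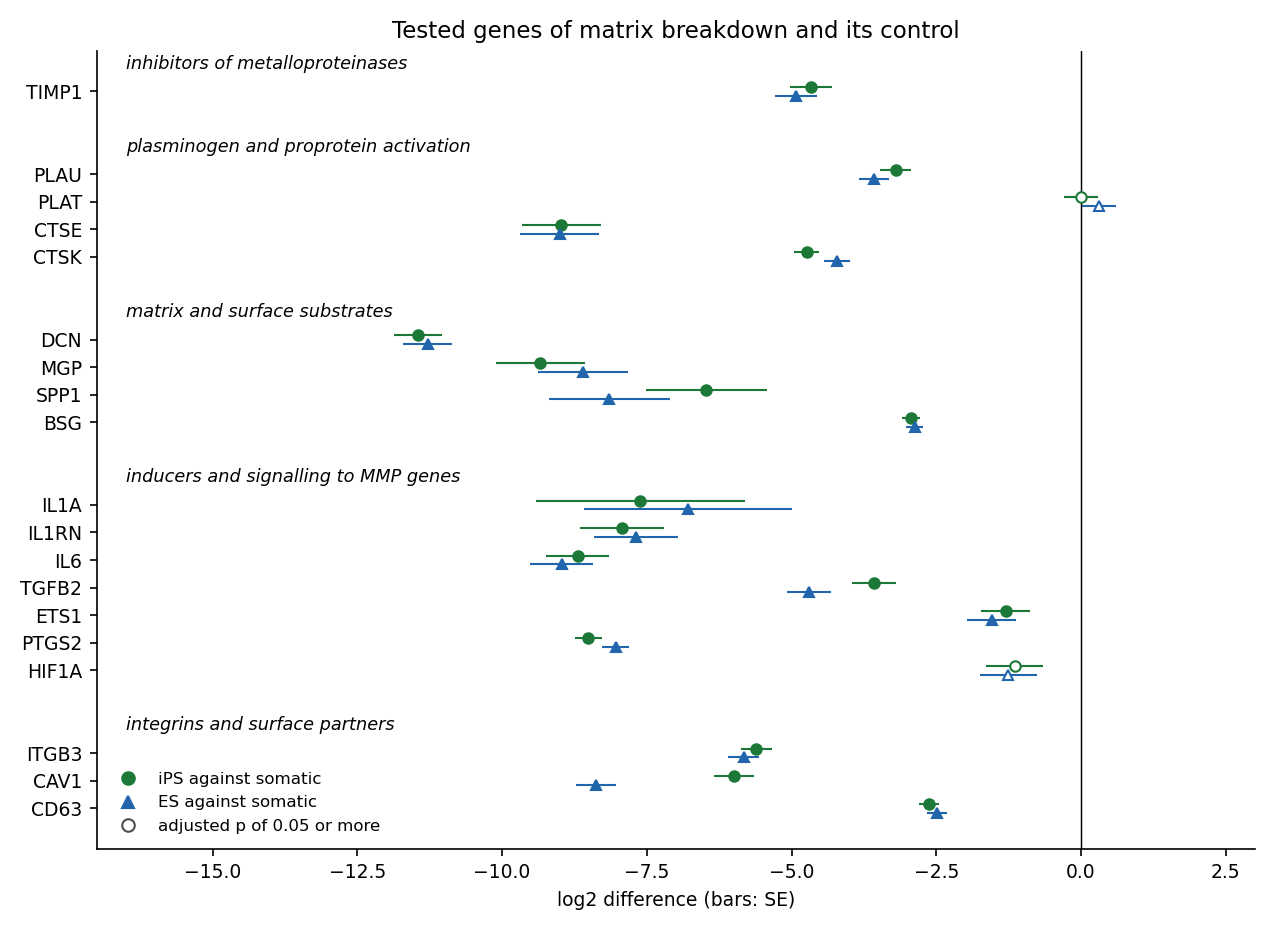
Log2 differences of the 19 tested genes of 5 lists around the metalloproteinases, as fitted, for iPS against somatic cells (circles) and ES against somatic cells (triangles), with bars of 1 SE; open symbols mark a limma adjusted p of 0.05 or more. PLAT and HIF1A are the open symbols. The fitted values of CTSE, DCN, IL6 and, in ES cells, SPP1 are no measured sizes, since the stem arrays were within background. The text gives smaller bounds for them, which apply to the main setting.

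Markers of other cell types did not all move in the same direction between stem and somatic cells. Connective tissue markers are given above, and all 3 tested were lower in iPS and ES cells. All 4 tested smooth muscle markers (ACTA2, TPM1, TPM2 and CALD1) were lower too, and their levels summed to 30.6 and 32.0 in late iPS cells, 49.3 and 42.5 in early iPS cells and 25.2 to 35.8 in ES cells, against 253.8 in liver cells and 98.1 in stomach cells. Of these markers, DCN and TPM2 were tested only because both somatic arrays passed the background filter, so their lower values were partly fixed by that filter. CD14, the only macrophage marker with a named probe of 9 listed, summed to 0.0746 and 0.089 in late and 0.0724 and 0.08 in early iPS cells and 0.0614 to 0.0972 in ES cells, against 1.11 in liver cells and 0.525 in stomach cells, so it was higher in the liver cells, where MMP9 was higher as well. No neutrophil or endothelial marker had a named probe. Of the 2 tested epithelial markers CXADR was higher in both kinds of stem cell, and of the 5 tested hepatocyte genes TF was higher and RBP4 lower. Of the 2 tested gastric genes ATP4A was higher in both and PGC in ES cells, and of the 2 erythroid genes HBA was lower in both, while POU5F1 and PODXL, the 2 tested pluripotency genes, were higher in both. The part of these cell types in the metalloproteinase results was not tested.

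The named genes whose level followed each metalloproteinase most closely were found by Pearson's r over the 8 arrays, among 510 other named genes read by their brightest tested probe. For MMP2 and MMP14, with 2 of the 8 arrays somatic and far from the rest, such an r mostly follows the difference between stem and somatic arrays. For MMP9 it also follows the liver cells, at 5.08 against 0.61 in stomach cells. MMP3 probe A_04_P000568 had no such split, with stomach cells at -2.26 among the iPS arrays. Each r is given as a description. The MMP14 probe and SPP1 were well above background on 4 of the 8 arrays each and ETS1 on 6, so their r rest partly on values within background. For MMP2 the closest were IL1RN (0.998), the acute phase protein SAA3 (0.994), TIMP1 (0.993), and the amino acid transporter subunits SLC3A2 (0.993) and SLC7A5 (0.992), and 156 genes had an r above 0.9. For MMP14 they were the anion exchanger SLC4A2 (0.976), the cytochrome P450 reductase POR (0.968), SPP1 (0.961), the calpain inhibitor CAST (0.960) and the phosphatase subunit PPP1CA (0.955), with 93 genes above 0.9. For MMP9 they were ETS1 (0.982), tropomyosin TPM1 (0.976), the growth factor IGF1 (0.959), the aldehyde dehydrogenase ALDH1A1 (0.959) and the Wnt inhibitor DKK1 (0.958), with 27 above 0.9. For MMP3, by probe A_04_P000568, the highest were the potassium channel subunit KCNMB1 (0.870), the keratin-associated gene KAP6.1.1 (0.840), WNT11 (0.837), the calcium channel TRPV5 (0.822) and TMEM109 (0.802), and 0 genes were above 0.9.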

How the data were processed

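Per the file headers, the deposited intensities were made with Agilent Feature Extraction 10.5.1.1, which subtracted local background and removed spatial trends, with no scaling between arrays. The authors' value table, on a log2 scale, matched these intensities scaled to the 75th percentile and centred per probe on the median, with a correlation that rounded to 1.00 on every array and column medians of -0.042 to 0.342, and served as an alternative.

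Levels are log2 of the processed signal, scaled on each array to the 75th percentile of its 43603 non-control probes, after spots of a probe were averaged. A total of 19 probes with outlier flags were left out and none was saturated. Probes well above background on both arrays of at least 1 group were tested, 28854 in all, of which 22112 were so on all 8 arrays. Symbols came from a RefSeq table of assembly mOryCun1.1, by accession without version, and covered 1933 probes of 680 genes. The brightest probe on average stood for a gene. Genes named are all members, all list genes with a named probe, and the 5 genes most alike by r.

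Tests used limma 3.58.1 in R 4.3.3 (lmFit and eBayes, two-sided, Benjamini-Hochberg over all tested probes, threshold 0.05), checked on simulated data. Passages of an iPS line were averaged for comparisons with somatic and ES cells (6 units, 3 groups), and comparisons by passage used 8 arrays in 4 groups. The early and late arrays of a line carry the same line name in the labels, and their deviations from the group means correlated at 0.22 over the tested probes. iPS and somatic cells of the same tissue correlated at 0.01 late and 0.02 early. Between iPS and ES arrays of the same replicate number, which share no line, the correlation was 0.12 late and 0.15 early. The gene lists and members were chosen with earlier results of these data known. Alternatives changed background correction, scaling, filter, dim spots, slide, probe choice, pairing and the arrays included. Since the files hold median and not mean spot signals, normexp used the median signals with an offset of 50. The number of arrays limits the precision.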

Additional observations from a re-analysis of the deposited data

Results flagged for a closer look

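Probes outside the tests gave signals in liver cells. MMP3 probe A_04_P000566 was well above background on that array alone, with a level of -0.273, and MMP13 probe A_04_P002386 likewise, with a level of -4.15. The probes of IL1B, at -2.09, and VTN, at -4.19, showed the same. None was tested, because a probe had to be well above background on both arrays of a group. MMP3 and MMP13 lie close together in the rabbit gene order, and what sets the liver cells apart was not tested.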

How the results depend on the processing

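Of the 4 genes, 3 were called between iPS and somatic cells and 3 between ES and somatic cells, and the alternatives gave 2 to 4 in each. These counts pool directions, since a call of MMP3 was of a lower level in iPS cells and of a higher level in ES cells. MMP2, MMP14 and MMP9 were lower wherever called. The other 4 comparisons gave 0 under every alternative. MMP2 and the brightest MMP14 probe stayed called in both comparisons with somatic cells under all alternatives that kept them, with log2 differences of -2.41 to -1.17 (iPS) and -2.37 to -1.26 (ES) for MMP2 and of -2.45 to -0.88 (iPS) and -2.32 to -0.93 (ES) for MMP14. The lowest sizes came without scaling and with normexp, which moved the median of all tested probes in iPS against somatic cells to 1.03 and -0.40. Relative to that median MMP2 was at -2.20 and -1.57, and MMP14 at -1.91 and -0.63. These settings called 16898 higher and 3589 lower (no scaling), and 7538 higher and 15204 lower (normexp), against 9863 higher and 9358 lower in the main setting. MMP14 probe A_04_P001356 was not called with slide as a block in iPS cells, nor in ES cells without the stomach cells. The first of these differences, -2.78, rests on the liver iPS line alone.

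Leaving out each array gave MMP9 differences of -6.90 to -2.43 in iPS cells and -7.05 to -2.58 in ES cells. For MMP3 probe A_04_P000567 between ES and somatic cells the range was -3.36 to 3.33, where 3.33 is set against stomach cells within background, so its sign depends on which somatic array is kept. The brightest MMP3 probe ranged from -0.45 to 1.22 there. PLAT was at 1.01 (adjusted p = 0.0136) in iPS cells without scaling, beside the median of 1.03 over all probes, so no turn relative to other probes is shown. A difference called under neither setting has no called direction and was not counted as turned.

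With the line as a replicate block, 0 metalloproteinase genes were called between late and early iPS cells, and with the tissue as a replicate block 3 between iPS and somatic cells, where MMP9 had an adjusted p of 0.0151. The replicate block changed no metalloproteinase call. With only probes well above background on all arrays, MMP14 and all but 1 substrate were not tested.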
